A study of Mus musculus with 9 samples.

Results

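Monocyte chemokines and their receptors were described here as a group of 9 genes, picked by symbol from the 32285 genes that were counted in single nuclei of mouse hearts. The group holds 6 ligands (Ccl2, Ccl7, Ccl12, Ccl3, Ccl4 and Cx3cl1) and 3 receptors (Ccr1, Ccr2 and Cx3cr1). The choice was by name and not by a threshold on these counts, though earlier results of these data were known, and each of the 9 had UMIs (unique molecular identifiers, 1 for each captured RNA molecule) in the nuclei that were kept. For every gene the UMIs were set by class of nucleus and by group, and the ligands were set against the nuclei that held receptor UMIs.

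The hearts came from 9 male wild-type mice aged 9 to 10 weeks, with 3 hearts in each of 3 groups and 1 library of nuclei per heart. NS-Sham mice had the chest opened without coronary occlusion and received saline. NS-I/R mice received saline and had the left anterior descending coronary artery tied for 45 min, followed by 24 h of reperfusion, the return of blood flow. Enpa-I/R mice had the same occlusion and reperfusion and received enpatoran, a drug that blocks TLR7 (a receptor for single-stranded RNA), in 2 injections of 5 mg/kg into the peritoneum, of which the first came 1 h before ischemia. The sources give the time of the second injection in 2 ways, as 2 h later and as right after the ischemia. The whole frozen heart was powdered, so a library mixes injured and remote muscle.

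Monocyte chemokines are small secreted proteins that guide leukocytes along a gradient by binding receptors coupled to G proteins. CCL2, CCL7 and CCL12 bind CCR2, which marks inflammatory monocytes and lets them leave the bone marrow and enter injured tissue. CCL3 binds CCR1 on neutrophils and monocytes, and CX3CL1 is a membrane-bound chemokine of endothelium and neurons whose receptor CX3CR1 marks patrolling monocytes and many resident macrophages. In the infarcted heart the CCL2 and CCR2 pair is known for the recruitment of monocytes.

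After filters, 41979 of 56766 barcodes were kept, with 3160 to 6471 nuclei per library and a median of 2365 to 3264 UMIs per kept nucleus. Library totals were 19651794 to 38970152 UMIs before filters, and the kept nuclei held 1.40e+07 to 3.11e+07 UMIs per library. Clusters were named from marker genes with none of the 9 genes among them, and all but 1 of 27 clusters took a class name. The unnamed cluster was led by heat-shock genes, and 444 of its nuclei lay in NS-I/R hearts, 296 of them in replicate 1 alone. Macrophage-like nuclei formed 1 resident-like cluster (Lyve1, Timd4, Folr2) and 1 monocyte-derived-like cluster (Fn1, Vcan, Arg1, Chil3). Monocyte-derived-like nuclei were 0.314% ± 0.136, 4.64% ± 0.864 and 3.096% ± 0.721 of the nuclei in sham, saline-treated injured and enpatoran-treated injured hearts (SD, n = 3 each), and neutrophil-like nuclei were 0.0400% ± 0.0171, 8.67% ± 1.37 and 2.72% ± 1.94. The NS-Sham libraries held only 8 to 16 monocyte-derived-like nuclei each, so this class was tested between the 2 injured groups alone. Any 2 libraries shared at most 11 barcodes.

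To show the DNA next to which these genes start, the 250 bases before the RefSeq start are given for 4 genes (GRCm38.p6, 5′ to 3′ on the gene's own strand). Their values differ most in kind. Ccl12 lay mostly in macrophage-like nuclei, and Ccl3 was near 0 in sham hearts. Ccr1 was higher after injury in macrophage-like nuclei, and Cx3cr1 moved in opposite directions in different classes. Promoters matched for 6 of the 9 genes and did not include Ccl2, Ccl7 and Ccl4. Capitals mark the letters of 4 motifs searched on both strands: TATAAA (the TATA box), GAGGAA (a core bound by PU.1, a myeloid transcription factor), TGANTCA (bound by AP-1) and the NF-kB consensus.
Ccl12 (chr11:82101595-82101844, + strand): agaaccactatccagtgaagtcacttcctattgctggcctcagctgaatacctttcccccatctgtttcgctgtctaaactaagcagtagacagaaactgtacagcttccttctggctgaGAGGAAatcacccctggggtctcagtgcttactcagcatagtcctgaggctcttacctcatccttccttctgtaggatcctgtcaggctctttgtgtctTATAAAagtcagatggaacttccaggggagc
Ccl3 (chr11:83649379-83649628, - strand): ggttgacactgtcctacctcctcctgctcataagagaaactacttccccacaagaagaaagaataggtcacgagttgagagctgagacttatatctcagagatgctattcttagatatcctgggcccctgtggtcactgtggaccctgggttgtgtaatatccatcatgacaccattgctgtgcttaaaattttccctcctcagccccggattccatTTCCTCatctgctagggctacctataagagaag
Ccr1 (chr9:123968693-123968942, - strand): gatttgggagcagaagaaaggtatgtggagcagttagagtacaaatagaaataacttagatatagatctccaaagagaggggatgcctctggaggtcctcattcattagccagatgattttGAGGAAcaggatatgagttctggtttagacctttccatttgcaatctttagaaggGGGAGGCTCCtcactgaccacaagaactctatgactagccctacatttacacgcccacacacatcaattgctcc
Cx3cr1 (chr9:120068297-120068546, - strand): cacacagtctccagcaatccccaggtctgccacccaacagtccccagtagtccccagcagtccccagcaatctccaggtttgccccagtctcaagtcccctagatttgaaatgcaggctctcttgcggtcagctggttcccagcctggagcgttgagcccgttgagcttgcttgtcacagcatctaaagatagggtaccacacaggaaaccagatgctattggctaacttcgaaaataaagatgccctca

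Counted back from the start, Ccl12 held TATAAA at bases 31 to 26 and GAGGAA at bases 130 to 125. Ccl3 held GAGGAA on the other strand (written TTCCTC) at bases 33 to 28. Ccr1 held GAGGAA at bases 129 to 124 and an NF-kB match at bases 74 to 65, and the windows of Cx3cr1 and Ccr2 held none of the 4. The window of Cx3cl1, not printed here, held TATAAA at bases 6 to 1. It also held GAGGAA at bases 93 to 88 and, on the other strand, at bases 66 to 61. Of 32851 promoters cut the same way, 12.4% held TATAAA, 23.3% held GAGGAA, 6.75% held TGANTCA and 7.25% held the NF-kB consensus. These matches describe letters, and no binding was measured.

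Ischemia and reperfusion were compared with sham surgery in saline-treated hearts. Most of these chemokine and receptor genes were higher after injury. Over all nuclei, Ccl2 was 23.1-fold, Ccr1 19.6-fold, Ccr2 2.97-fold and Cx3cr1 2.43-fold higher in NS-I/R than in NS-Sham. Pooled over NS-I/R hearts, most Cx3cr1 UMIs (957) lay in cardiomyocyte-like nuclei, where the part of reads from neighbouring genes was not tested. In resident-like macrophage nuclei Ccl2 was 10.0-fold and Ccr1 3.64-fold higher, whereas Cx3cr1 was 3.68-fold lower. UMIs were summed per library and class, and edgeR's quasi-likelihood test was adjusted by Benjamini-Hochberg over all genes tested in that class, with a call at an adjusted p under 0.05. Each library is 1 heart, so every p-value measures the spread between hearts. In all-nuclei sums, more cells of a type and more RNA per cell cannot be told apart.

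Over all nuclei, 8 of the 9 genes were called higher in NS-I/R than in NS-Sham, where 47.8% of all 18066 genes tested were called and 23.9% were called higher. Their median log2 fold change was 2.33, beside 0.0017 for all genes. In macrophage-like nuclei 8 of the 9 genes passed the low-count filter, and 5 were called higher and 1 lower (34.9% of genes called, 18% higher and 16.9% lower). In resident-like nuclei alone, 3 of 7 were called higher and 1 lower (22.9% called, 11.3% higher and 11.6% lower). The calls were 3 of 5 higher in fibroblast-like nuclei (46.7% called, 23.4% higher), 4 of 5 in endothelial-like nuclei (34.2%, 17.7% higher), 5 of 6 in cardiomyocyte-like nuclei (45.3%, 23.7% higher) and 1 of 1 in pericyte-like nuclei (24%, 12% higher). The filter keeps a gene that is high in only 1 group, so these counts describe the genes that passed and not the whole set of 9. They include the Ccr1 calls in fibroblast-like, endothelial-like and cardiomyocyte-like nuclei and the endothelial-like Ccl2 call, which are not read as expression below. In NS-I/R, cardiomyocyte-like nuclei held Ccl2, Ccl7 and Ccr2 at means of 8.81, 2.46 and 1.18 CPM. These nuclei are taken below as the background of free RNA, so any calls of those genes there are not read as expression either.

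Enpatoran was compared with saline after ischemia and reperfusion, to ask what differed in injured hearts that received the drug. Ccl2, Ccl3 and Ccr1 were lower in macrophage-like nuclei of Enpa-I/R hearts, by 1.48-fold, 3.75-fold and 1.74-fold, and no gene of the group was called higher in any class. This class joins 2 clusters, and in each cluster alone 0 of 7 genes were called. Monocyte-derived-like nuclei were 716 of its 1404 nuclei in NS-I/R and 399 of 1138 in Enpa-I/R. The part of this shift in the 3 falls was not tested. Both comparisons use the same NS-I/R libraries, so a high NS-I/R value raises one difference and lowers the other. Over all nuclei, 4 of 9 genes were called lower (Ccl2, Ccl3, Ccr1 and Cx3cr1), where 16.5% of genes were called and 8.74% were called lower. Pooled over each injured group, most Cx3cr1 UMIs lay in cardiomyocyte-like nuclei. The Cx3cr1 call (edgeR adjusted p = 0.048) was lost under 13 of 18 alternatives, with adjusted p of 0.0149 to 0.150 over them, and those of Ccl2 and Ccr1 were lost under 4 of 18 each. The median log2 fold change was -0.52 over the 9 genes and 0.0038 over all genes tested.

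In macrophage-like nuclei 3 of 8 genes were called lower in Enpa-I/R (6.21% of genes called, 3.39% lower). In endothelial-like nuclei 1 of 5 was called, Ccl2 (6.21%, 3.49% lower), and in cardiomyocyte-like nuclei 1 of 6, Cx3cr1 (18.9%, 11.2% lower). edgeR called 0 of 5 in fibroblast-like nuclei (9.45% of genes called), 0 of 7 in resident-like nuclei (2.02%), 0 of 7 in monocyte-derived-like nuclei (0.857%), 0 of 3 in neutrophil-like nuclei (1.62%) and 0 of 1 in pericyte-like nuclei (5.56%). At an unadjusted p under 0.05, the counts in those 5 classes were 2, 2, 2, 0 and 1, and DESeq2 also called 0 in each.

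**Figure D1:**
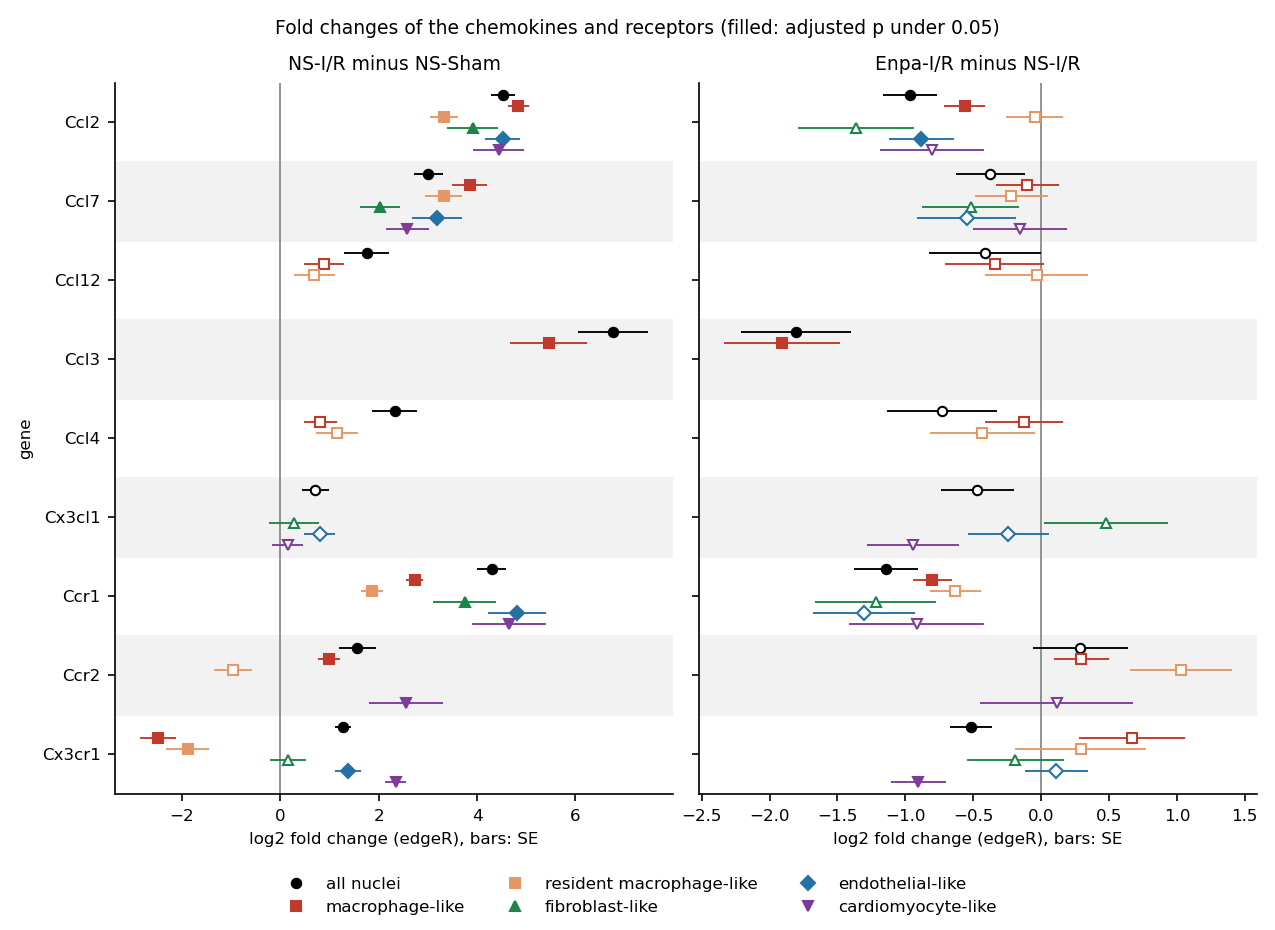
Log2 fold change of each gene (x axis, bars show the SE) for injury against sham (left) and enpatoran against saline after injury (right), in all nuclei and in 5 classes of nuclei, with 3 libraries per group. Filled symbols passed an adjusted p under 0.05; the Ccl2 symbols all lie right of 0 on the left side, and the cardiomyocyte-like and macrophage-like symbols of Cx3cr1 lie on opposite sides of 0.

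Ccl2 encodes the principal ligand of CCR2 (ENSMUSG00000035385, chr11:82035571-82037453 on the + strand, GRCm38). Over all nuclei it stood at 3.18, 3.41 and 4.28 CPM (UMIs of the gene per 1000000 UMIs of the nuclei described) in the NS-Sham hearts, at 124, 80.0 and 68.5 in NS-I/R hearts and at 42.6, 43.9 and 44.4 in Enpa-I/R. The 3 groups did not overlap, with sham lowest, enpatoran between and saline-treated injury highest. The log2 fold change was 4.53 ± 0.24 (SE) for injury against sham (edgeR adjusted p = 2.18e-06), and Ccl2 fell by 0.97 on the log2 scale with enpatoran, with an SE of 0.20 (edgeR adjusted p = 0.0176). That call was lost when any Enpa-I/R library was left out, with adjusted p of 0.0529 to 0.0713.

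Ccl2 was densest in monocyte-derived-like nuclei. There it reached 870.0, 970.3 and 746 CPM in NS-I/R hearts and 672, 545 and 803 in Enpa-I/R, and none of the 39 sham nuclei of this class held a Ccl2 UMI. The injured groups overlapped, and the log2 difference with enpatoran was -0.38 with a 95% interval of -0.79 to 0.038 (edgeR adjusted p = 0.348). Pooled over libraries, this amounts to 2.17 Ccl2 UMIs per nucleus in NS-I/R hearts and 1.98 in Enpa-I/R.

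Resident-like macrophage nuclei also held Ccl2, at 14.1, 20.6 and 24.96 CPM in NS-Sham hearts, 178, 214 and 246 in NS-I/R hearts and 265, 174 and 159 in Enpa-I/R. Both injured groups lay wholly above sham and overlapped each other. The log2 fold change with injury was 3.32 ± 0.28 (SE, edgeR adjusted p = 1.26e-06), and with enpatoran it was -0.05, with an interval of -0.49 to 0.39. Over macrophage-like nuclei as a whole, which joins both clusters, Ccl2 rose by 4.84 ± 0.22 (SE, log2, edgeR adjusted p = 1.01e-09) and fell by 0.56 with enpatoran, with an SE of 0.15 (edgeR adjusted p = 0.0391). The enpatoran call in the joined class was lost under 10 of 18 alternatives, with adjusted p from 0.012 to 0.196 over them, and the monocyte-derived-like share of macrophage-like nuclei moved with the groups, at 39 of 824, 716 of 1404 and 399 of 1138 nuclei. Its part in the result was not tested.

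Among NS-I/R hearts, Ccl2 was widely spread in fibroblast-like nuclei (SD 156, n = 3). Ccl2 stood there at 15.3, 10.7 and 19.3 CPM in NS-Sham, at 402, 223 and 91.1 in NS-I/R hearts and at 108, 56.3 and 109.8 in Enpa-I/R. Every injured heart exceeded every sham heart, but NS-I/R replicate 3 lay inside the Enpa-I/R range. The rise with injury was 3.91 ± 0.52 (SE, log2, edgeR adjusted p = 9.52e-05). The enpatoran difference was -1.37 with an interval of -2.30 to -0.44 and did not pass (edgeR adjusted p = 0.0627). Without NS-I/R replicate 3 it was -1.75 (adjusted p = 0.000118), and without NS-I/R replicate 1 it was -0.74 (adjusted p = 0.276), so its size and its call depend on these 2 libraries.

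In vessel classes, endothelial-like nuclei held 0.771, 2.24 and 0.903 CPM of Ccl2 in NS-Sham hearts, 46.8, 38.6 and 27.5 in NS-I/R hearts and 22.9, 19.8 and 16.3 in Enpa-I/R, with no overlap between any of the groups. The log2 changes were 4.52 ± 0.35 with injury and -0.88 ± 0.24 with enpatoran (SE, edgeR adjusted p = 2.79e-06 and 0.0475), and the latter was lost under 9 of 18 alternatives. Pericyte-like nuclei went from 2.21 ± 2.497 to 77.5 ± 4.24 and 37.4 ± 10.7 (mean ± SD, n = 3), a rise of 4.54 ± 0.43 with injury. Cardiomyocyte-like nuclei held 8.81 ± 1.41 CPM in NS-I/R. In fixed samples of 1000 UMIs per nucleus, 37.5% of monocyte-derived-like, 12.6% of resident-like, 9.68% of fibroblast-like, 5.93% of neutrophil-like, 3.799% of endothelial-like and 1.60% of cardiomyocyte-like nuclei of NS-I/R had a Ccl2 UMI (means over 3 libraries). Muscle nuclei were taken as the background of free RNA, an assumption that was not tested. Their median depth was 7657 to 9135 UMIs before sampling, against 2152 to 2202 in monocyte-derived-like nuclei, so sampling lowers their share more. Without sampling, cardiomyocyte-like nuclei of NS-I/R held 0.119, 0.0944 and 0.0733 Ccl2 UMIs per nucleus, and endothelial-like nuclei held 0.105, 0.0852 and 0.0567. Endothelial-like Ccl2 was thus not above the muscle nuclei per nucleus, though it was above them in CPM and in the sampled share. The part of free RNA was not tested, so the endothelial-like Ccl2 calls are not read as expression. Pericyte-like nuclei, at 0.207, 0.179 and 0.182, and fibroblast-like nuclei, at 1.52, 0.866 and 0.352, lay above the muscle nuclei.

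A gene on the opposite strand, Gm17268, overlaps Ccl2. Its level in fibroblast-like nuclei was 17.9 ± 6.66, 72.6 ± 31.6 and 53.2 ± 17.3 CPM in the 3 groups in the same order (SD, n = 3 each). In macrophage-like nuclei Gm17268 was higher after injury, at 12.5 ± 6.46, 260 ± 81.8 and 266 ± 33.8 CPM. In resident-like nuclei alone it stood at 13.6 ± 6.98, 105 ± 42.9 and 152 ± 46.0. Whether the counting used strand is not given in the sources used here, and the part of such reads in the Ccl2 values was not tested.

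**Figure D2:**
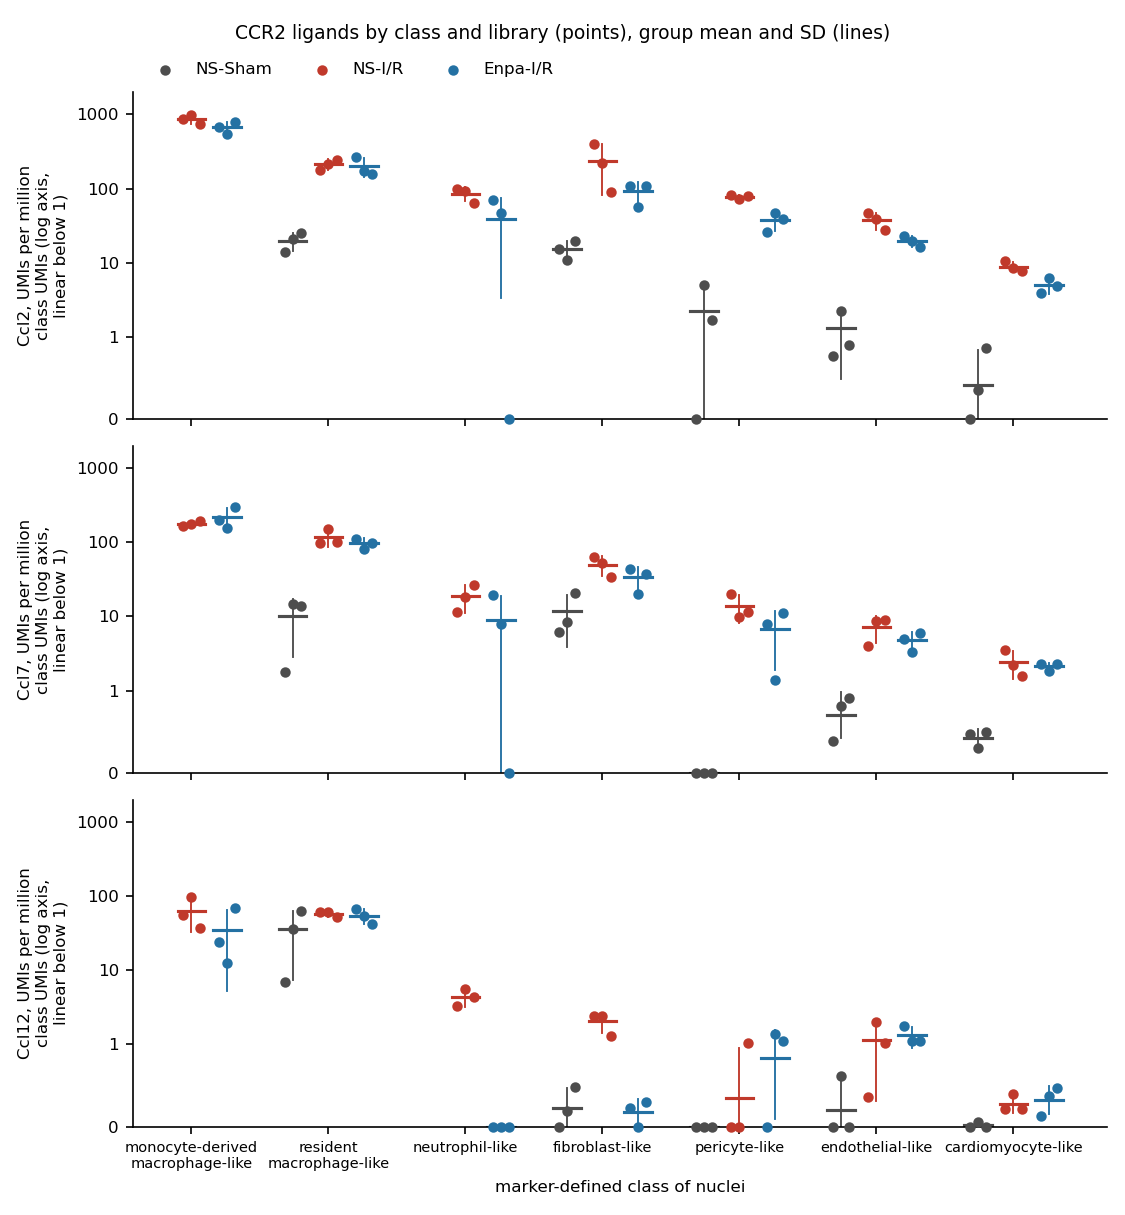
CPM, UMIs of the gene scaled to 1000000 UMIs of the class (y axis, logarithmic above 1 and linear below) for Ccl2, Ccl7 and Ccl12 in 7 classes of nuclei (x axis); points are libraries, and lines give the group mean and SD (n = 3). The NS-I/R points of Ccl2 lie highest in monocyte-derived-like nuclei (746 to 970.3) and range from 91.1 to 402 in fibroblast-like nuclei; sham values are left out where a class held too few nuclei.

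Ccl7 encodes a second CCR2 ligand and lies next to Ccl2 (ENSMUSG00000035373, chr11:82045712-82047525, + strand). In macrophage-like nuclei it stood at 1.57, 14.0 and 12.8 CPM in NS-Sham hearts, 131, 162 and 157 in NS-I/R hearts and 143, 108 and 171 in Enpa-I/R. Injured hearts of both kinds lay about an order of magnitude above sham and overlapped each other. Ccl7 rose by 3.85 ± 0.35 with injury (SE, log2, edgeR adjusted p = 9.54e-07), and by 4.57 when NS-Sham replicate 2 was left out. With enpatoran the difference was -0.10 with an interval of -0.59 to 0.39 (edgeR adjusted p = 0.843).

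Within the macrophage-like clusters, Ccl7 was at 166, 176 and 194 in monocyte-derived-like and 99.5, 149.8 and 100.05 in resident-like nuclei of NS-I/R. Those ranges did not overlap, so Ccl7, as Ccl2, was denser in the monocyte-derived-like nuclei. In resident-like nuclei it rose by 3.33 ± 0.37 with injury (SE, log2, edgeR adjusted p = 1.54e-05). Fibroblast-like nuclei held 11.7 ± 7.91, 49.8 ± 15.001 and 34.1 ± 12.4 CPM in the 3 groups (SD, n = 3), a rise of 2.03 ± 0.41 with injury (SE, log2, edgeR adjusted p = 0.00173) and a difference of -0.52 with enpatoran (interval -1.29 to 0.26).

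Ccl12 encodes a further mouse CCR2 ligand (ENSMUSG00000035352, chr11:82101845-82103400, + strand), and most of its UMIs lay in macrophage-like nuclei, with 64 of 71 UMIs in NS-Sham hearts, 207 of 277 in NS-I/R hearts and 156 of 185 in Enpa-I/R. In resident-like nuclei it stood at 7.04, 36.3 and 63.8 CPM in sham hearts, 61.0, 61.0 and 52.0 in NS-I/R hearts and 67.5, 54.9 and 41.9 in Enpa-I/R. All 3 groups overlapped, and the sham hearts were the most spread out. The log2 difference with injury was 0.69 with an interval of -0.19 to 1.56 (edgeR adjusted p = 0.251). Over macrophage-like nuclei it was 0.89 (edgeR adjusted p = 0.107), and it passed without NS-I/R replicate 3 (1.10, adjusted p = 0.0315) or without NS-Sham replicate 3 (1.33, adjusted p = 0.0329). Over all nuclei Ccl12 rose by 1.75 ± 0.45 (SE, log2, edgeR adjusted p = 0.0093), beside the larger share of monocyte-derived-like nuclei, of which the part was not tested.

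The classes that held CCR2 ligand UMIs shifted between groups. Fibroblast-like nuclei held 56.2% of the Ccl2, Ccl7 and Ccl12 UMIs of NS-Sham (244 of 434), 45.8% in NS-I/R (3482 of 7601) and 35.9% in Enpa-I/R (1411 of 3932). Monocyte-derived-like nuclei held 0 of 434 in sham, 26.2% in NS-I/R hearts and 27.5% in Enpa-I/R. Resident-like nuclei held 28.3%, 8.42% and 19.0%. With both clusters joined, macrophage-like nuclei held 28.3%, 34.6% and 46.5%. Per heart, fibroblast-like nuclei held the larger share in all 3 sham hearts and macrophage-like nuclei in all 3 Enpa-I/R hearts. The NS-I/R hearts differed in this order, with 56.7%, 46.2% and 28.7% in fibroblast-like and 26.5%, 34.5% and 47.2% in macrophage-like nuclei of replicates 1, 2 and 3.

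Ccl3 and Ccl4 encode the macrophage inflammatory proteins 1-alpha and 1-beta and lie in a second cluster on chromosome 11 (Ccl3 ENSMUSG00000000982, chr11:83647844-83649355, - strand; Ccl4 ENSMUSG00000018930, chr11:83662584-83664683, + strand). Ccl3 had 1 UMI in all NS-Sham nuclei, 172 in NS-I/R hearts and 44 in Enpa-I/R. In macrophage-like nuclei it stood at 0, 0 and 2.56 CPM in NS-Sham hearts, 38.3, 26.6 and 18.1 in NS-I/R hearts and 5.27, 6.94 and 10.1 in Enpa-I/R. The 3 groups did not overlap. With 96 UMIs against 1, the NS-I/R to NS-Sham ratio in macrophage-like nuclei was 57.6, with an exact 95% counting interval of 10.1 to 2299. Ccl3 was called higher with injury there (edgeR adjusted p = 7.54e-05), and fell by 1.91 with enpatoran on the log2 scale, with an SE of 0.43 (edgeR adjusted p = 0.0161).

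That enpatoran call was lost without Enpa-I/R replicate 1 (-1.71, adjusted p = 0.0891), without Enpa-I/R replicate 2 (-1.86, 0.0794) or without NS-I/R replicate 1 (-1.59, 0.113). Of the 172 NS-I/R UMIs, 52 lay in resident-like, 44 in monocyte-derived-like and 38 in neutrophil-like nuclei. Neutrophil-like nuclei held Ccl3 at 16.9 ± 2.496 CPM in NS-I/R hearts and 16.9 ± 1.96 in Enpa-I/R (SD, n = 3), from 38 and 8 UMIs.

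Ccl4 moved less. In macrophage-like nuclei it stood at 15.7, 11.2 and 12.8 CPM in NS-Sham hearts, 26.4, 18.0 and 26.8 in NS-I/R hearts and 23.7, 25.4 and 15.8 in Enpa-I/R. The NS-I/R hearts lay above the sham hearts, and the injured groups overlapped. The log2 difference with injury was 0.81 with an interval of 0.093 to 1.52 (edgeR adjusted p = 0.074), and it passed without NS-I/R replicate 2 (0.99, adjusted p = 0.0472). With enpatoran it was -0.12, with an interval of -0.73 to 0.48. Over all nuclei Ccl4 rose by 2.33 ± 0.46 with injury (SE, log2, edgeR adjusted p = 0.00231), where neutrophil-like nuclei held 58 of 197 Ccl4 UMIs in NS-I/R hearts and 1 of 33 in NS-Sham.

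Cx3cl1, the gene of the membrane-bound ligand of CX3CR1, had its highest mean level in endothelial-like nuclei (ENSMUSG00000031778, chr8:94772009-94782427, + strand). The values there were 3.47, 7.95 and 5.87 CPM in NS-Sham hearts, 12.2, 10.4 and 10.8 in NS-I/R hearts and 11.1, 9.72 and 6.31 in Enpa-I/R. NS-I/R hearts lay just above the sham hearts, and Enpa-I/R overlapped both. The log2 difference with injury was 0.80 with an interval of 0.12 to 1.48 (edgeR adjusted p = 0.0649), which passed without NS-Sham replicate 2 (1.17, adjusted p = 0.0356). Cx3cl1 was also the gene of the 9 that was not called over all nuclei (0.71, edgeR adjusted p = 0.0538). It rests on 133, 250 and 164 UMIs in the 3 groups, of which 61, 96 and 87 lay in endothelial-like nuclei. The resident-like level of NS-I/R, 9.58 ± 8.93 CPM (SD, n = 3), overlapped the endothelial-like level. Per nucleus, endothelial-like nuclei of NS-Sham held 0.00812, 0.0176 and 0.0115 UMIs, overlapping the 0.0135, 0.0131 and 0.0137 of cardiomyocyte-like nuclei. In NS-I/R they held 0.0274, 0.0230 and 0.0222, above the 0.0181, 0.0189 and 0.0120 of muscle. The part of free RNA was not tested.

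Ccr1 encodes a receptor for CCL3 and other CC chemokines (ENSMUSG00000025804, chr9:123962124-123968692, - strand). In macrophage-like nuclei it stood at 28.3, 32.7 and 30.7 CPM in NS-Sham hearts, 222, 199 and 220.1 in NS-I/R hearts and 133, 115 and 121 in Enpa-I/R. The groups were tight and did not overlap, with enpatoran between sham and saline-treated injury. Ccr1 rose by 2.73 ± 0.18 with injury (SE, log2, edgeR adjusted p = 4.31e-08) and fell by 0.80 with enpatoran, with an SE of 0.14 (edgeR adjusted p = 0.00526). The enpatoran call held under each of 18 alternatives (adjusted p 0.00117 to 0.0427), the only enpatoran call over macrophage-like nuclei of which this was true.

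By cluster, Ccr1 stood at 345, 259.7 and 277 in monocyte-derived-like nuclei of NS-I/R hearts and at 232, 168 and 194 in Enpa-I/R hearts, and at 112, 142 and 132 against 77.2, 84.2 and 80.4 in resident-like nuclei. The injured groups did not overlap in either cluster, but neither difference passed over all genes (-0.59, edgeR adjusted p = 0.167, and -0.63, 0.092). Without NS-I/R replicate 3 both passed (-0.64, 0.0325, and -0.61, 0.049). In resident-like nuclei Ccr1 had risen from 31.7, 34.4 and 30.5 in sham, by 1.87 ± 0.22 (SE, log2, edgeR adjusted p = 2.03e-05).

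Neutrophil-like nuclei were the other Ccr1 class, at 355, 306 and 222 CPM in NS-I/R hearts and 365, 319 and 461 in Enpa-I/R. These overlapped, with a log2 difference of 0.33 and an interval of -0.25 to 0.92 (edgeR adjusted p = 0.563). Neutrophil-like and monocyte-derived-like levels did not differ beyond their spread in NS-I/R (294 ± 67.1 and 294 ± 45.3, SD, n = 3). Over all nuclei Ccr1 rose by 4.30 ± 0.29 with injury and fell by 1.14 with enpatoran, with an SE of 0.23 (log2, edgeR adjusted p = 6.55e-06 and 0.0172), and neutrophil-like nuclei moved with it, from 5 to 1338 and 326 nuclei. Outside the leukocyte classes, in samples of 1000 UMIs, 0.822% of endothelial-like, 0.573% of fibroblast-like and 0.407% of cardiomyocyte-like nuclei of NS-I/R had a Ccr1 UMI, against 23.7% of neutrophil-like nuclei. The part of free RNA in these low shares was not tested, so the Ccr1 calls in those 3 classes are not read as expression.

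**Figure D3:**
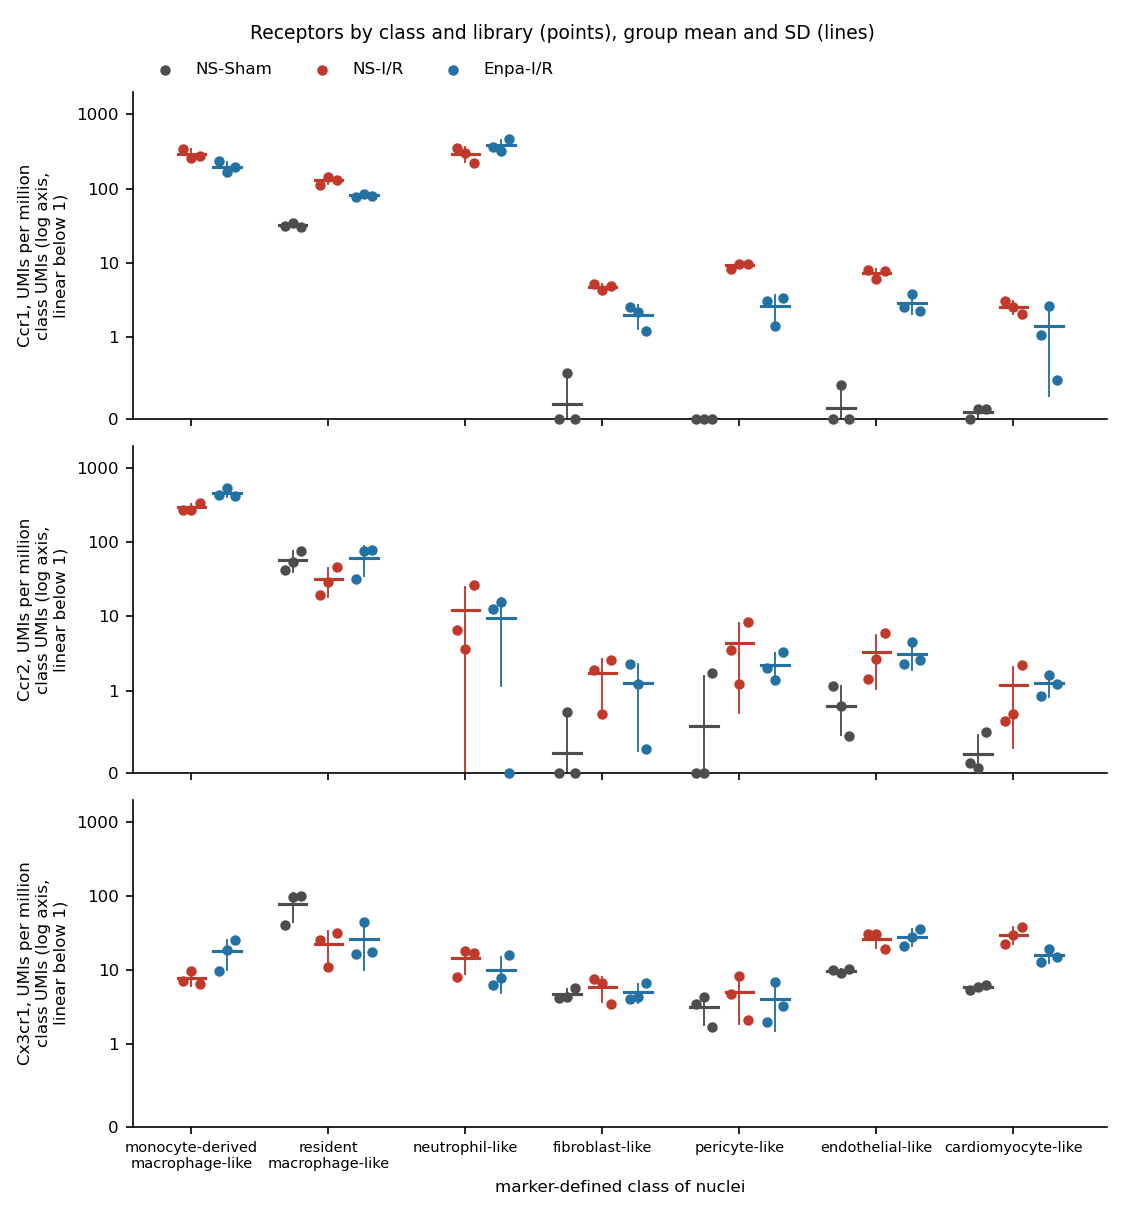
CPM, UMIs of the gene scaled to 1000000 UMIs of the class (y axis, logarithmic above 1 and linear below) for Ccr1, Ccr2 and Cx3cr1 in 7 classes of nuclei (x axis); points are libraries, and lines give the group mean and SD (n = 3). Ccr2 lies highest in monocyte-derived-like nuclei (275 to 539 in injured hearts), and Cx3cr1 is lower after injury in resident-like nuclei and higher in endothelial-like and cardiomyocyte-like nuclei.

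Ccr2 encodes the receptor of CCL2, CCL7 and CCL12 (ENSMUSG00000049103, chr9:124101950-124113557, + strand). In monocyte-derived-like nuclei it stood at 275, 277 and 336 CPM in NS-I/R hearts and 442, 539 and 425 in Enpa-I/R. The enpatoran hearts all lay above the saline-treated hearts, but the difference of 0.65 (log2, interval 0.26 to 1.03) did not pass (edgeR adjusted p = 0.101). It passed without NS-I/R replicate 3 (0.75, adjusted p = 0.00555). The 39 sham nuclei of this class held Ccr2 at 324, 386 and 568 CPM, from 59 UMIs in all.

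In resident-like nuclei Ccr2 was about an order of magnitude lower, at 42.2, 54.0 and 77.6 CPM in NS-Sham hearts, 19.3, 29.6 and 46.0 in NS-I/R hearts and 31.7, 75.7 and 78.6 in Enpa-I/R. NS-I/R tended to the low end, and each pair of groups overlapped. The log2 differences were -0.96 with injury (interval -1.77 to -0.145, edgeR adjusted p = 0.0827) and 1.03 with enpatoran (interval 0.235 to 1.82, 0.154), and neither passed. Both passed when NS-I/R replicate 3 was left out (-1.31, adjusted p = 0.0188, and 1.38, 0.0212). Over macrophage-like nuclei Ccr2 rose by 0.99 ± 0.23 with injury (SE, log2, edgeR adjusted p = 0.00342), the opposite sign to its resident-like cluster, beside the larger share of monocyte-derived-like nuclei.

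In samples of 1000 UMIs, 5.41% ± 3.13 of macrophage-like nuclei had a Ccr2 UMI in sham hearts, 11.6% ± 4.65 in NS-I/R hearts and 14.1% ± 1.14 in Enpa-I/R (SD, n = 3). Exact permutation tests gave p = 0.2 for injury and p = 0.5 for enpatoran (adjusted 0.267 and 0.5 over 4 tests, two-sided), and 3 hearts against 3 cannot go below 0.1. In NS-I/R 18.3% ± 6.53 of monocyte-derived-like nuclei had a Ccr2 UMI and in Enpa-I/R 31.4% ± 3.26, against 0.391% of endothelial-like nuclei of NS-I/R, whose median depth was 1656 to 1723 UMIs.

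Cx3cr1, the fractalkine receptor gene, went the other way in macrophage-like nuclei. In resident-like nuclei it stood at 40.5, 96.2 and 99.8 CPM in NS-Sham hearts, 25.7, 11.1 and 32.0 in NS-I/R hearts and 16.5, 45.1 and 17.5 in Enpa-I/R. Sham hearts lay above every NS-I/R heart, and 1 Enpa-I/R heart reached into the sham range. Cx3cr1 fell by 1.88 with injury on the log2 scale, with an SE of 0.43 (edgeR adjusted p = 0.0051). With enpatoran it differed by 0.29, with an interval of -0.73 to 1.31 (edgeR adjusted p = 0.796). Over macrophage-like nuclei it fell by 2.48 with an SE of 0.36 (edgeR adjusted p = 9.27e-05).

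The share of macrophage-like nuclei with a Cx3cr1 UMI, in samples of 1000 UMIs, was 7.64% ± 3.18 in NS-Sham hearts, 1.03% ± 0.671 in NS-I/R hearts and 3.22% ± 1.46 in Enpa-I/R (SD, n = 3). Exact permutation tests gave p = 0.1 for each comparison, the smallest that 3 against 3 allows (adjusted 0.2 over 4 tests, two-sided). In NS-I/R only 2 of 642 sampled monocyte-derived-like nuclei had a Cx3cr1 UMI, while 122 had a Ccr2 UMI and 1 had both. In NS-Sham, 9 of 38 sampled monocyte-derived-like nuclei had a Cx3cr1 UMI, against 50 of 683 resident-like nuclei. The few sham nuclei of the monocyte-derived-like class held Cx3cr1 at 88.3, 193 and 0 CPM, from 6, 10 and 0 UMIs.

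In cardiomyocyte-like and endothelial-like nuclei Cx3cr1 rose. Cardiomyocyte-like nuclei held 5.50, 5.88 and 6.31 CPM in NS-Sham hearts, 22.5, 30.04 and 38.4 in NS-I/R hearts and 13.1, 19.3 and 15.2 in Enpa-I/R. The groups did not overlap, and the changes were 2.35 ± 0.22 with injury (SE, log2, edgeR adjusted p = 4.07e-05) and -0.90 ± 0.20 with enpatoran (0.0191, lost under 4 of 18 alternatives). Endothelial-like nuclei went from 9.86 ± 0.624 to 26.9 ± 6.71 and 28.5 ± 7.33 (SD, n = 3), a rise of 1.38 ± 0.26 with injury (SE, log2, edgeR adjusted p = 0.00155). Muscle thereby held 957 of the 1562 Cx3cr1 UMIs of NS-I/R, and macrophage-like nuclei 52. Per nucleus, endothelial-like nuclei of NS-I/R held 0.0686, 0.0682 and 0.0395 Cx3cr1 UMIs, below the 0.259, 0.339 and 0.366 of cardiomyocyte-like nuclei. The part of free RNA in the endothelial-like values was not tested.

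Values of neighbouring genes stand beside the rise of Cx3cr1 in muscle and endothelium. The annotated Cx3cr1 gene (ENSMUSG00000052336, chr9:119901616-120069879, - strand, GRCm38) is long because of 1 transcript that runs 166.7 kb, whereas the shortest transcript spans 19.6 kb. The long transcript covers Xirp1, Csrnp1 and Gorasp1 on the same strand. Xirp1, a gene of striated muscle, stood at 25.2 ± 4.56, 126 ± 9.70 and 60.8 ± 1.16 CPM in cardiomyocyte-like nuclei of the 3 groups (SD, n = 3). It rose by 2.32 ± 0.15 with injury and fell by 1.01 with enpatoran (log2, edgeR adjusted p = 6.38e-06 and 0.00815). Csrnp1 rose by 2.87 ± 0.43 in the same nuclei. Over NS-I/R replicates 1, 2 and 3 it stood at 32.5, 22.5 and 10.7 CPM, the reverse of the order of Cx3cr1. Gorasp1 did not rise there, at 3.21 ± 0.0652, 2.23 ± 0.712 and 2.61 ± 0.346 CPM in the 3 groups (SD, n = 3). In endothelial-like nuclei Xirp1 rose by 1.68 and Csrnp1 by 2.33 with injury (edgeR adjusted p = 0.00183 and 0.000722). Gorasp1 stood at 3.18 ± 0.389, 1.98 ± 0.567 and 2.12 ± 0.761 CPM in the 3 groups there (SD, n = 3). From NS-I/R to Enpa-I/R, endothelial-like Xirp1 went from 24.7 ± 4.84 to 16.7 ± 2.32 CPM, while Cx3cr1 did not fall. Which annotation and which reads were counted is not given in the sources used here, and the part of these neighbours in the Cx3cr1 values of muscle and endothelium was not tested.

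**Figure D4:**
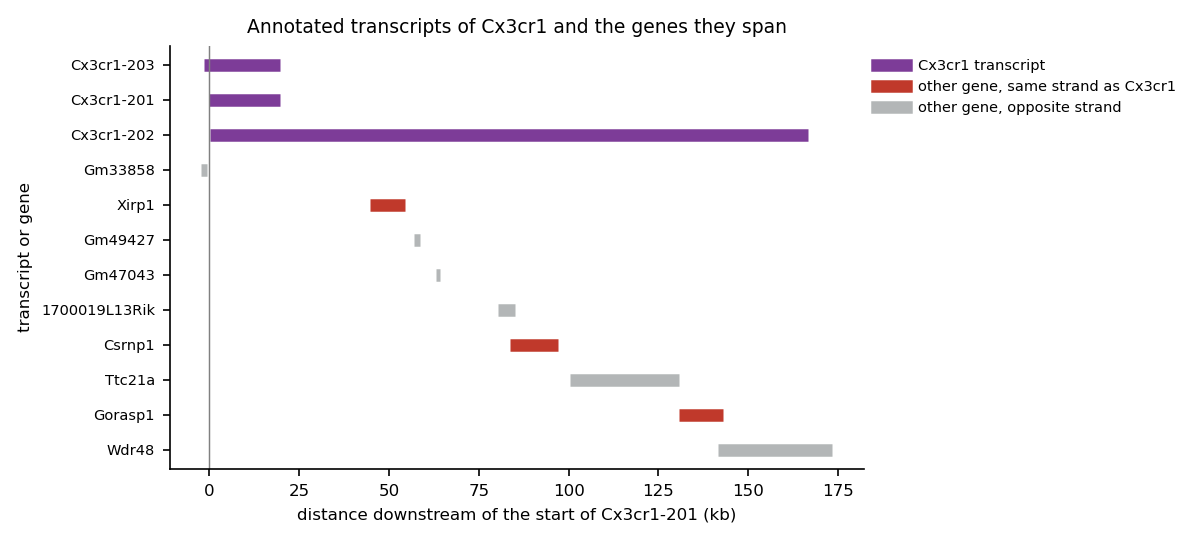
Annotated transcripts of Cx3cr1 and the genes they overlap, drawn to scale against the distance in kb downstream of the start of the shortest Cx3cr1 transcript (x axis); each bar is 1 transcript or gene, and colours separate the Cx3cr1 transcripts from genes on the same and on the opposite strand. Xirp1 (44.7 to 54.5 kb), Csrnp1 (83.6 to 97.1 kb) and Gorasp1 lie on the same strand within the longest transcript and beyond the end of the shortest at 19.6 kb.

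Ligands were then set against receptor-bearing nuclei. Per 1000 nuclei, the CCR2 ligand UMIs were 32.6 ± 9.51 in NS-Sham hearts, 500.0 ± 135 in NS-I/R hearts and 297 ± 31.3 in Enpa-I/R, and the Ccr2 UMIs were 16.7 ± 3.36, 49.7 ± 19.8 and 67.6 ± 39.02 (SD, n = 3). The ligand UMIs per Ccr2 UMI were 1.43, 2.45 and 2.04 in the sham hearts, 16.03, 13.3 and 5.12 in NS-I/R hearts and 6.56, 2.93 and 5.92 in Enpa-I/R. All injured hearts exceeded all sham hearts, and NS-I/R replicate 3 fell within the Enpa-I/R range. UMI counts of different genes are not scaled for length, so these ratios are read between groups and not as molecules of ligand per receptor, and no test was made of them.

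Ligand and receptor lay in part in the same nuclei. Of 642 monocyte-derived-like nuclei of NS-I/R sampled to 1000 UMIs, 122 had a Ccr2 UMI and 37 of those also had a Ccl2 UMI, which is 30.3% of them beside 37.4% of the class. In Enpa-I/R the count was 41 of 117, beside 121 of 372 for the class. Ccr1 and Ccr2 were detected together in 34 of the 642 NS-I/R nuclei. At this depth a nucleus without a UMI cannot be read as lacking the transcript.

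The classes that held receptor UMIs also differed between groups. Monocyte-derived-like nuclei held 28.0% of the Ccr2 UMIs of NS-Sham (59 of 211), 71.3% in NS-I/R (552 of 774) and 70.3% in Enpa-I/R (574 of 817), while resident-like nuclei held 50.7%, 6.59% and 15.9%. For Ccr1, resident-like nuclei held 64 of 75 UMIs in NS-Sham, and neutrophil-like nuclei held 643 of 1689 in NS-I/R hearts and 167 of 679 in Enpa-I/R.

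**Figure D5:**
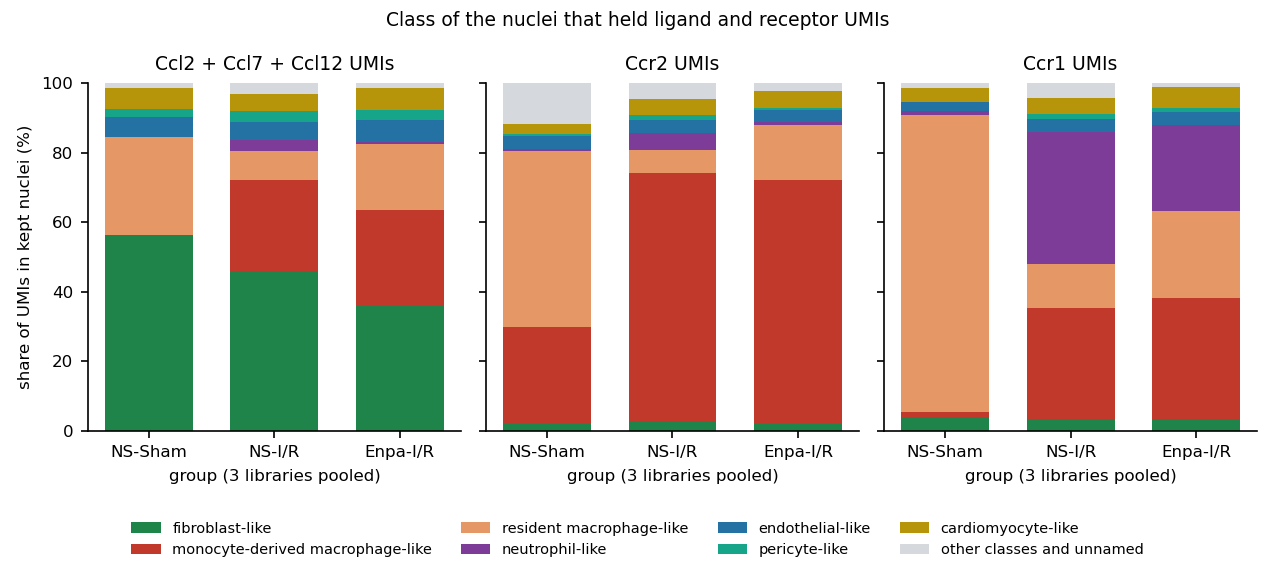
Share of the CCR2 ligand UMIs (Ccl2, Ccl7 and Ccl12 together), of Ccr2 UMIs and of Ccr1 UMIs by class of nucleus (y axis, percent of the UMIs in kept nuclei), with the 3 libraries of each group pooled (x axis). Fibroblast-like nuclei hold 56.2%, 45.8% and 35.9% of the ligand UMIs, and monocyte-derived-like nuclei hold 71.3% of Ccr2 UMIs in NS-I/R.

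For each of the 9 genes, the 3 genes with the most similar pattern were taken by Pearson correlation of log2(CPM + 1) over 95 sums of a class in a library, among 15698 genes. The sums share libraries and classes, so the correlations are descriptions. Ccr1 had the closest match, Clec5a, a myeloid lectin receptor (r = 0.93), followed by Itgam (0.92). Ccl12 was nearest to Naip6 (0.87), Ccl3 to Tnf (0.86) and Ccl4 to Tlr6 (0.86). Ccl2 and Ccl7 were less closely matched, by Adam8 (0.77) and Pf4 (0.79), and Cx3cl1 and Cx3cr1 least closely, by Ptpru (0.60) and Parvb (0.55).

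Other genes of the pathway were counted from lists. Each count stands beside the share of all genes called in that class, which with injury was 34.9% in macrophage-like, 46.7% in fibroblast-like and 34.2% in endothelial-like nuclei, and with enpatoran 6.21%, 9.45% and 6.21%. Among the other CC chemokine ligands, 5 of 15 were tested in macrophage-like nuclei and 3 were called higher with injury and none lower (list median 1.20 in log2, all genes 0.025). They were Ccl6, from 159.9 ± 19.2 to 581 ± 73.3 CPM, Ccl9, from 89.2 ± 31.9 to 210 ± 51.9 (SD, n = 3), and Ccl17, with 0 UMIs in sham hearts and 45 in NS-I/R. With enpatoran 1 of 5 was called, Ccl24, an eosinophil attractant, which was higher (from 15.8 ± 11.8 to 46.1 ± 8.76). In fibroblast-like nuclei 4 of 7 were called higher with injury, beside 23.4% of all genes, and 1, Ccl27a, lower. In lymphatic endothelial-like nuclei Ccl21a, a ligand of CCR7 that guides dendritic cells into lymph vessels, fell by 1.54 with injury (982 ± 354 to 358 ± 140 CPM). It was higher with enpatoran (883 ± 55.8), with edgeR adjusted p of 0.00047 and 0.0126 for injury and enpatoran. In that class 740 of 5472 genes were called with injury and 61 with enpatoran. Ccl21a is also a marker by which this class was named, so its level was compared within a class partly defined by it.

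Of 13 other receptors and decoy receptors, 2 were tested in macrophage-like nuclei and none passed in either comparison by edgeR. In fibroblast-like nuclei Ackr4, a scavenger of CCL19 and CCL21, fell from 24.7 ± 3.81 to 4.85 ± 0.731 CPM with injury, and Ackr2, a scavenger of inflammatory CC chemokines, rose from 5.61 ± 1.43 to 14.9 ± 4.63 (SD, n = 3). In endothelial-like nuclei Ackr3 rose by 0.71 with injury and fell by 0.55 with enpatoran (log2, edgeR adjusted p = 0.0024 and 0.0399).

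All 3 proteases known to shed CX3CL1 were tested. In macrophage-like nuclei Adam10 rose by 0.66 ± 0.16 with injury, and in endothelial-like nuclei Ctss rose by 1.54 ± 0.38 (SE, log2, edgeR adjusted p = 0.00527 and 0.00828). The part of free RNA in the endothelial-like Ctss values was not tested. None of the 3 was called with enpatoran in either class.

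Of 17 genes that signal downstream of chemokine receptors, all were tested in macrophage-like nuclei, and 2 were called higher and 3 lower with injury (median -0.18, all genes 0.025), beside 18% and 16.9% of all genes. Pik3r5, the adaptor of the PI3-kinase that G proteins activate, rose by 1.16 ± 0.15, whereas Arrb2, which ends receptor signalling, fell by 0.89 and Elmo1, a Rac activator, fell by 0.74 (log2). With enpatoran Arrb2 rose by 0.66 ± 0.16 and Dock2, the partner of Elmo1, by 0.52 ± 0.15 (SE, log2, edgeR adjusted p = 0.0216 and 0.0443).

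All 10 regulators of chemokine transcription were tested in macrophage-like nuclei, with 4 called higher and 2 lower after injury (median 0.72), beside the same 18% and 16.9%. Nfkbia, the NF-kB inhibitor that NF-kB itself induces, rose from 57.7 ± 27.9 to 277 ± 67.2 CPM and was lower with enpatoran at 157 ± 16.8 (SD, n = 3, edgeR adjusted p = 1.9e-05 and 0.045). Zc3h12a, a nuclease that degrades cytokine mRNA, rose from 22.2 ± 3.82 to 73.6 ± 8.77, and Irf1 fell from 59.4 ± 14.0 to 21.6 ± 8.64. In fibroblast-like nuclei 3 were called higher and 3 lower with injury, where 46.7% of all genes were called, and Zc3h12a was the 1 called with enpatoran, at 53.3 ± 13.6 in NS-I/R hearts and 28.8 ± 2.43 in Enpa-I/R (SD, n = 3).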

How the data were processed

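Nuclei of 9 hearts were sequenced with a 10x 3′ assay. The authors deposited raw UMI counts per gene and barcode for each library, made with Cell Ranger 8.0.0 per the file headers, while the submitters' processing notes list Cell Ranger 6.1.1, Seurat and the builds GRCm39 and GRCh38. Counting settings and annotation are not given in the sources used here. The 9 genes and the gene lists were chosen with earlier results of these data known.

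Barcodes with at least 500 genes and at most 5% mitochondrial UMIs were kept (11.8% to 23.7% of barcodes per library exceeded that limit), and 2984 likely doublets by Scrublet score were removed. Nuclei were clustered in scanpy 1.11.5 (Python 3.11.15) from 2000 variable genes, 30 principal components, 15 neighbours and Leiden resolution 1, without the 9 genes or mitochondrial genes, and clusters were named from fixed markers. Names are thus rebuilt from the counts and may differ from the authors' own. For each library, the UMI counts of a class were added up (at least 25 nuclei per library) and the sums were tested with edgeR 4.0.16 (R 4.3.3; low-count filter, TMM scaling, quasi-likelihood test, Benjamini-Hochberg adjustment over all genes tested), with all groups in 1 fit and no replicate term. The 95% intervals use the t distribution with the test's degrees of freedom. Levels are CPM, the UMIs of a gene per 1000000 UMIs of the class, without TMM scaling. Shares of nuclei with a UMI were taken after sampling each nucleus to 1000 UMIs, leaving out shallower nuclei, and the 4 share comparisons used two-sided exact permutation tests (scipy 1.17.1).

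The test was checked on simulated counts: of 200 genes changed by a log2 of 1, it recovered 41.5% (injury against sham, fibroblast-like, 13422 genes) and 38.5% (enpatoran against saline after injury, macrophage-like, 10416 genes). Library totals (19651794 to 38970152 UMIs before filters, 1.40e+07 to 3.11e+07 in kept nuclei) and the number of nuclei per class set the precision. Counting intervals cover counting error only. Gene positions are from GENCODE M21 (GRCm38), matched by gene ID for 32158 of 32285 IDs. Named genes were the 9 genes, the 3 genes most like each, and called list genes, at most 4 per list, class and comparison by size of change. Alternatives were DESeq2 1.42.0, its size factors, no low-count filter, doublets kept, at least 1000 genes, a mitochondrial limit of 20%, Leiden resolution 2, only the 2 groups compared, a replicate block, sampling to 500 UMIs or none, and leaving out each library.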

Additional observations from a re-analysis of the deposited data

Results flagged for a closer look

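Cx3cr1 moved in opposite directions in different classes under the same comparison. From NS-Sham to NS-I/R its log2 fold change was -1.88 in resident-like macrophage nuclei and 2.35 in cardiomyocyte-like nuclei, and every NS-I/R heart lay on the stated side of every sham heart in both classes. In endothelial-like nuclei the log2 fold change was 1.38, again opposite to the -1.88 of resident-like nuclei. There the Cx3cr1 UMIs per nucleus lay below those of cardiomyocyte-like nuclei in NS-I/R, and the part of free RNA was not tested. The difference between classes was not tested.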

How the results depend on the processing

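Each of 64 fold changes of the 9 genes was recomputed under the alternatives, giving 1113 values, of which 1025 kept their direction and side of the threshold, 47 lost a call, 24 gained one and 17 changed sign. None of the 29 called results changed sign, and 22 kept their call in every alternative run. Among these 64, the injury calls were all kept, and the losses lay in the enpatoran comparison. The sign changes were in uncalled enpatoran differences: with a mitochondrial limit of 20%, Ccl2 in resident-like nuclei was 0.030 and Ccl7 in monocyte-derived-like nuclei -0.060, and with at least 1000 genes Ccl7 in macrophage-like nuclei was 0.00087. Leaving out 1 library at a time gave -0.20 to 0.11 for Ccl12 and -0.30 to 0.082 for Ccl2 in resident-like nuclei, -0.29 to 0.042 for Ccl4 and -0.26 to 0.063 for Ccl7 in macrophage-like nuclei, -0.14 to 1.82 for Ccl4 and -0.042 to 0.46 for Ccl7 in monocyte-derived-like nuclei, -0.083 to 0.72 for Ccr2 over all nuclei, and -0.091 to 0.31 in endothelial-like and -0.38 to 0.57 in resident-like nuclei for Cx3cr1. With 500 UMIs per nucleus the enpatoran difference in the share of macrophage-like nuclei with a Cx3cr1 UMI was -0.026 percentage points. The cause was not tested.

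The number of the 9 genes called with enpatoran moved as follows. With only the 2 groups compared it was 1 over all nuclei, 0 in cardiomyocyte-like and 0 in endothelial-like nuclei. With doublets kept it was 2 in cardiomyocyte-like and 2 in endothelial-like nuclei, with DESeq2 it was 2 in cardiomyocyte-like nuclei, and with at least 1000 genes it was 0 in endothelial-like nuclei. Without the low-count filter it was 2 in endothelial-like, 2 in fibroblast-like, 1 in pericyte-like and 3 in resident-like nuclei. Leaving out 1 library gave 0 to 4 over all nuclei, 0 to 2 in cardiomyocyte-like, 0 to 2 in endothelial-like, 0 to 1 in fibroblast-like, 1 to 4 in macrophage-like, 0 to 2 in monocyte-derived-like, 0 to 1 in pericyte-like and 0 to 3 in resident-like nuclei. For injury, the count without the low-count filter was 7 in endothelial-like, 1 in lymphatic endothelial-like, 3 in pericyte-like and 7 in resident-like nuclei, with doublets kept 2 in pericyte-like nuclei, and with a mitochondrial limit of 20% 1 in smooth muscle-like nuclei. Leaving out 1 library gave 1 to 2 in pericyte-like, 4 to 7 in resident-like and 4 to 5 in cardiomyocyte-like nuclei for injury. The cardiomyocyte-like count was 5 in the design used.

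Over all genes, the count called with enpatoran ranged widely over the alternatives: 227 to 8065 over all nuclei (2980 in the design used), 217 to 2114 in macrophage-like nuclei (647), 2 to 5324 in fibroblast-like nuclei (1268), 91 to 6397 in cardiomyocyte-like nuclei (2638), 108 to 3676 in endothelial-like nuclei (773), 0 to 1158 in monocyte-derived-like nuclei (62) and 23 to 1379 in resident-like nuclei (172).

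Replicate numbers did not pair the hearts: deviations of same-numbered libraries correlated at -0.267 to 0.115, and 1 of 9 libraries correlated best with its own number. With a replicate block, the enpatoran difference of Ccl2 in macrophage-like nuclei was -0.56 (edgeR adjusted p = 0.0598), that of Cx3cr1 over all nuclei was -0.53 (0.0521), and the injury difference of Ccr2 in resident-like nuclei was -0.99 (0.0229).

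Of the 9 genes, depth limits Ccl3 and Ccl4 most, with 1 and 33 UMIs in NS-Sham.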
